A study of Mus musculus with 32 samples.

Results

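The array used here carried 16194 probes that the scanner files name by a genomic interval, such as chr13:12792150-12869825 followed by the letter F or R, in place of a transcript or gene. They were chosen as every non-control probe whose systematic name begins with chr, and they make up 16194 of 55681 non-control probes. The probes bear 4610 different names on 3543 intervals of mouse build mm9: 1067 intervals had probes of both letters, 1251 of F alone, 1222 of R alone and 3 of neither. The letter is taken as a strand letter, although the files do not explain it. Intervals were 62 to 7128487 bases long with a median of 7304, and some lie inside others. Most names had 3 probes (1810 names) or 5 (975 names), 690 had a single probe, and 10 was the most. Probes of a name share their target, so they are not replicates of a condition. The working label calls these probes mostly lincRNA. No gene annotation of build mm9 was used here, so that label was not checked against gene models, and the probes are called interval-named probes.

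Long intergenic noncoding RNAs (lincRNAs) are transcripts of the stretches between protein-coding genes. Many are spliced and polyadenylated like messenger RNAs, but they are as a class less abundant and more restricted to single cell types or tissues. Some, such as Xist and H19, have well-studied roles in the silencing of a chromosome or in imprinting, while most catalogued ones have no known function.

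The RNA came from tumours of 4T1-Luc, a mouse mammary carcinoma line marked with luciferase, grown in female Balb/C mice aged 8 weeks, in the third mammary fat pad. Once tumours had established for 1 week, sunitinib, which inhibits receptor tyrosine kinases, was given at 40 mg/kg, or its vehicle, PBS with DMSO. The digested tumour was split with antibody beads that bind PECAM-1, found on the surface of endothelial cells, into a selected fraction (EC) and the tissue that remained (bulk), so the EC fraction is an enrichment and not a pure population. At 1300 mm3 each fraction had 4 arrays of vehicle mice, 4 of sunitinib mice labelled sensitive up to day 8 and 4 of sunitinib mice labelled resistant, and shared mouse numbers join the 2 fractions. Smaller tumours, taken at day 9 or at 600 mm3, were measured in bulk alone, with 2 sunitinib arrays, of mice labelled sensitive, and 2 vehicle arrays each. Replicates are separate mice carrying the same tumour line.

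All 8 resistant arrays lay on a slide of their own, so resistance and slide cannot be told apart. On the other slides, sunitinib arrays lay in column 1 and vehicle arrays in column 2, so treatment and column cannot be told apart. EC and bulk arrays of vehicle and sensitive mice lay on different slides, and only the resistant mice had both fractions on a slide. In the EC fraction all 16 endothelial markers (Cdh5, Tie1, Robo4 and others) were higher than in bulk, with a median log2 difference of 4.61, as were all 9 macrophage markers tested (median 2.64) and 7 of 8 mural cell markers (1.01). All 10 tumour epithelial markers were lower (median -1.47), as were 8 of 10 T and NK cell markers. In bulk tissue, fewer cells of a type and less RNA per cell cannot be told apart.

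How many interval-named probes gave a signal was asked first. A probe was counted as detected on an array when the scanner software called it well above background. On EC arrays of vehicle mice 74.4% to 76.8% of interval-named probes were detected, and on those of sensitive mice 73.1% to 82.5%. On EC arrays of resistant mice the share was 23.5% to 33.6%, below every other array of the series. Other probes also had their lowest shares there, 55.3% to 61.1% against 82.8% to 84.4% in EC vehicle. In bulk the share of interval-named probes was 53.5% to 60.2% in vehicle and 59.2% to 77.1% in sensitive mice. The bulk resistant arrays fell apart: mouse 1 had 41%, mouse 3 39.5% and mouse 4 36.8%, whereas mouse 2 had 78.3%. At day 9 the share was 60% and 61.5% with sunitinib and 56% and 64.7% with vehicle. At 600 mm3 it was 59.7% and 74.8% with sunitinib and 70.7% and 71.6% with vehicle. The sunitinib and vehicle arrays overlapped at day 9 and at 600 mm3, and on every array the interval-named probes were detected less often than the others.

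**Figure D1:**
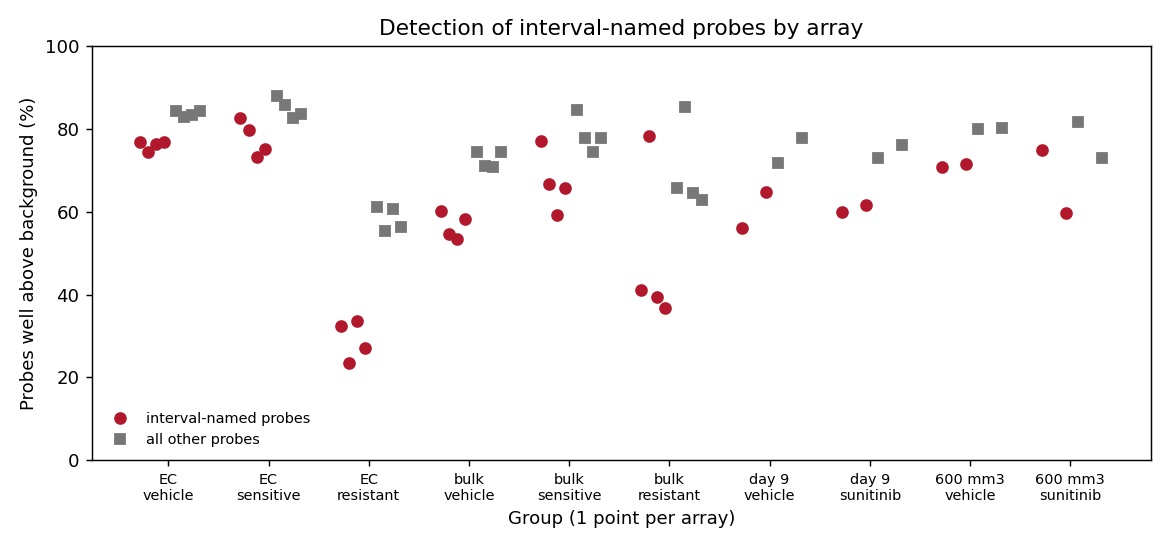
Share of probes called well above background on each of the 32 arrays, in percent, by group, with interval-named probes as circles and all other probes as squares. The 4 EC resistant arrays lie at 23.5% to 33.6% of interval-named probes, and bulk resistant mouse 2, at 78.3%, stands far above the other 3 arrays of its group.

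The EC resistant arrays were also the dimmest of the EC arrays. The 75th percentile of an array's signal, which was subtracted on the log2 scale from every value, was 242 to 402 on EC resistant arrays, 608 to 911 on EC vehicle and 656 to 771 on EC sensitive arrays. On bulk resistant arrays it was 733 to 872, within the range of the other bulk arrays. Bulk resistant mouse 2 was unlike the rest: its median interval-named signal was 274, against 11.9 to 14.1 on the other 3 bulk resistant arrays, and the lowest signal its array called well above background was 108, against 16.6 to 24.5. The part of these differences in what follows was not tested. Comparisons of resistant mice are therefore given with counts for probes detected on all 32 arrays, under other scalings and without that mouse.

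Detection was also compared between groups probe by probe. Of the interval-named probes, 5197 (32.1%) were detected on every EC vehicle array and on no EC resistant array, and 0 the other way round. The share was 16% among other probes. Between the vehicle fractions, 1125 (6.95%) were detected on every EC and no bulk array and 1 the reverse, and the first share was 3.77% among other probes. On no EC resistant array were 9694 interval-named probes (59.9%) detected, against 2743 (16.9%) on no EC vehicle array. The matching shares of other probes are not given, here or for probes never detected. Array by array, other probes were also detected less often in EC resistant, at 55.3% to 61.1% against 82.8% to 84.4% in EC vehicle. Detected on all 32 arrays were 2847 interval-named probes (17.6%) of 1358 intervals, against 49.8% of other probes, and 473 (2.92%) were never detected. Members of intervals with both letters and with a single letter were alike here, with 17.8% and 17.2% detected on all 32 arrays.

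What distinguishes endothelium-enriched tissue from the rest of the tumour was asked by comparing EC with bulk within the 12 mice. A probe was tested when it was well above background on at least 4 arrays of the fit, and it was called at a limma adjusted p under 0.05. Of 13292 interval-named probes tested, 2092 were higher in EC and 1056 lower, that is 15.7% and 7.94%. Of all probes tested, 18.3% were called higher and 17.9% lower. The median log2 difference was 0.12 for interval-named probes and 0.03 for all probes. Neither share was larger than on the array as a whole. The median changed sign with quantile scaling (-0.02, with 2296 higher and 1940 lower) and with the authors' deposited values (-0.04, with 2604 and 2156), while higher calls outnumbered lower ones in these scalings too. Of all 47856 probes tested, 9374 were higher and 10571 lower with quantile scaling, and 10145 and 11537 with the deposited values. Among the 2847 detected on all 32 arrays, 719 (25.3%) were higher and 539 (18.9%) lower, against 21.5% and 30.1% of all probes detected on all 32 arrays. Without resistant mouse 2 the calls rose to 6101 higher and 1348 lower, and with the 8 vehicle and sensitive mice alone to 5224 and 1556. Of all 47856 probes tested, 15357 were higher and 10512 lower in those 8 mice. Fits without a mouse or array, and calls that held under every scaling, are given for interval-named probes alone, here and below. Such counts do not set these probes apart from the array as a whole.

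The largest rises that had the same sign in every mouse were several log2 units. The probe of chr13:12792150-12869825 F was higher in EC by 3.09 (log2, SE 0.323, n = 12 mice, limma adjusted p = 5.79e-05), with the lowest mouse at 0.29, the median at 3.25 and the highest at 4.58. The lowest was resistant mouse 2, and 3 of the 4 tested probes of that name were called higher. The probe of chr5:92548501-92566401 F was higher by 3.03 (SE 0.286), from 0.42 to 5.25 over mice, and was the 1 called of 6 tested. The probe of chr4:131905739-131910814 R, detected on all 32 arrays, was higher by 2.93 (SE 0.31), from 1.01 to 5.09. It was the only tested probe of its name, and 0 of the 2 on the opposite letter were called. The probe of chr1:175660642-175671878 R was higher by 2.70 (SE 0.293; 2 of 3 probes), and those of chr13:52678544-52680308 F and chr16:59556175-59603176 R by 2.47 (SE 0.255) and 2.46 (SE 0.373), each with 3 of 3 probes called. Further probes detected on all 32 arrays were those of chr9:51905865-51911474 R at 2.43, chr11:53574182-53574644 R at 2.34 and chr12:83271350-83357214 R at 2.30.

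Falls in EC were smaller. The probe of chr9:31390809-31591204 F was lower by the largest amount, -1.98 (SE 0.135, limma adjusted p = 5.86e-06, n = 12 mice), the only tested probe of its name. The vehicle mice had -2.18, -1.90, -2.16 and -2.67, the sensitive mice -2.07, -2.40, -1.80 and -2.21, and the resistant mice -1.72, -2.36, -0.84 and -1.47. All 12 mice were below 0, as the choice of probes required, and the treatments overlapped. The probe of chr14:105988692-105994145 F, detected on all 32 arrays, was lower by -1.61 (SE 0.186), with all 3 probes called, and that of chr4:88745770-88774130 R by -1.59 (SE 0.203), also with 3 of 3. The probe of chr5:22801058-22939737 R was at -1.85 (SE 0.279), with 4 of 9 probes called lower, and that of chr12:117623500-117643575 R at -1.60 (SE 0.298), with 5 of 5. In the latter, resistant mouse 2 had -4.86 and the other 11 mice -0.74 to -2.05.

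**Figure D2:**
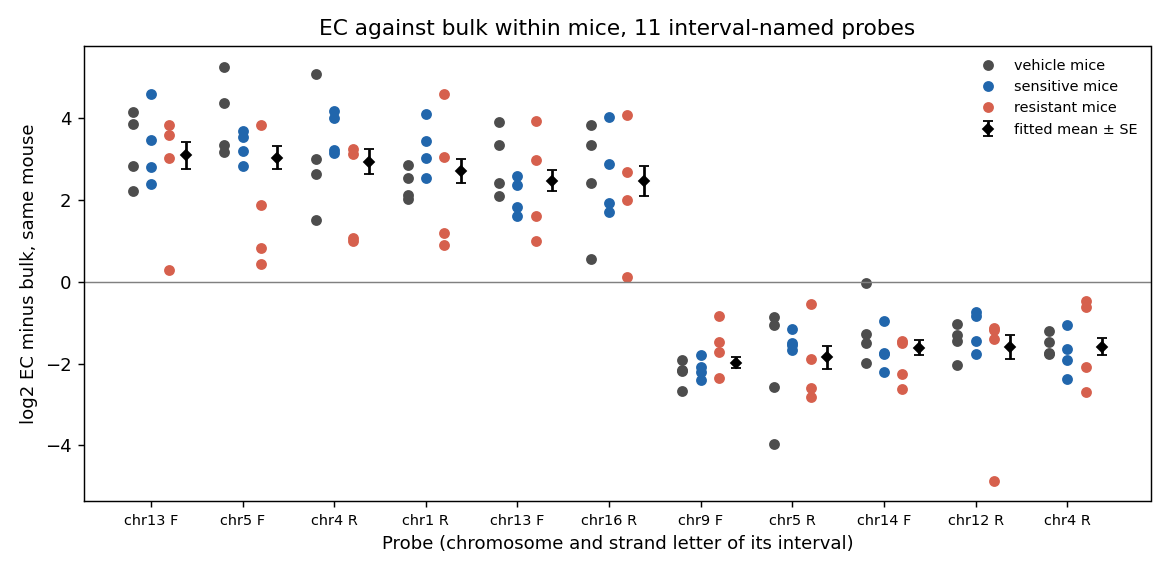
log2 EC minus bulk within each of the 12 mice for 11 interval-named probes, each labelled by chromosome and strand letter, with circles for mice coloured by treatment and diamonds for the fitted mean with its SE. Every mouse lies on the same side of 0 for each probe, as the choice of probes required, and the 3 treatments overlap.

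Some intervals carried the difference over most of their probes. Of the 10 probes of chr14:77006215-77063293 R, 8 were higher in EC, by 0.31 to 0.93. Of 10 probes of chr17:46972160-46997919 R 7 were higher, by 0.86 to 1.58, of 9 of chr11:97505439-97522274 R 6 were higher and 1 lower, and of 10 of chr16:59557120-59602070 R 6 were higher. Lower were 9 of 10 probes of chr17:26911397-26917047 F, by -0.42 to -0.81, 7 of 8 of chr8:72663625-72673010 F, 7 of 10 of chrX:90997595-91009570 R and 6 of 10 of chr2:158169020-158191295 R. On the opposite letter of chr17:26911397-26917047, 1 of 7 tested probes was higher and 0 were lower.

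How far probes of an interval move together was described over all of them, with no test. Across 3485 names with at least 2 tested probes, the EC minus bulk differences of the first 2 probes correlated at r = 0.296. For the 642 such pairs detected on all 32 arrays r was 0.549. Across 1010 intervals tested on both letters, the F and R probes correlated at r = -0.0099, and at 0.0939 for the 235 pairs detected on all 32 arrays. These points share the same arrays and signal range. At least 1 probe was higher in 1335 of the 3485 names, at least 2 in 424 and all in 89. At least 1 was lower in 610, at least 2 in 220 and all in 67, and 153 names held a probe of each direction. Of the intervals tested on both letters 246 had a higher probe on F alone, 245 on R alone and 157 on both.

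Neighbouring and overlapping intervals formed stretches in which many probes of a letter were called. The following 4 were singled out after their values were seen. In chr3:30032959-30133959, 15 of 25 tested R probes were higher in EC and 0 lower, with a median log2 difference of 1.69 and a highest of 3.65, while 0 of 6 F probes were higher and 1 was lower. The stretch holds 8 tested R intervals, several of them nested. In sensitive mice alone 10 of those 25 R probes were higher, in vehicle mice 4 and in resistant mice 2. In chr10:6480075-6603900 both letters were higher, 4 of 5 F probes and 6 of 7 R probes, up to 3.48 and 2.89. In chr16:59556175-59603176, 9 of 13 R probes and 2 of 9 F probes were higher. In chr17:46972160-47023558, 7 of 17 R probes were higher and 1 lower, and 6 of 18 F probes were higher.

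**Figure D3:**
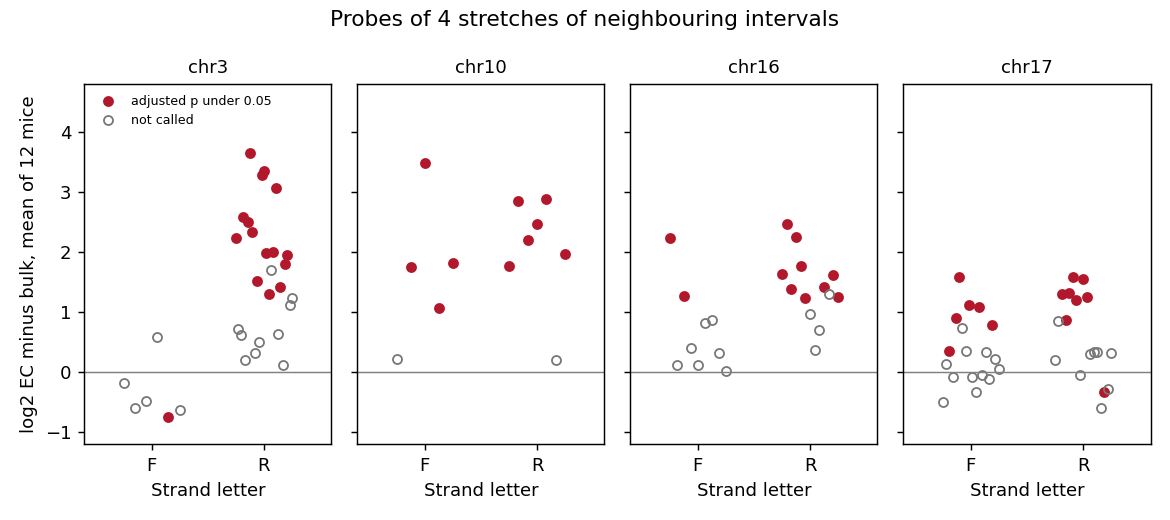
log2 EC minus bulk, as the fitted mean of 12 mice, of every tested probe in 4 stretches of neighbouring intervals, by strand letter, with filled points for limma adjusted p under 0.05 and open points for the rest. On chromosome 3 the R probes rise to 3.65 and the F probes stay near or below 0, whereas on chromosome 10 both letters are high.

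Split by treatment, vehicle mice had 1338 interval-named probes higher in EC and 196 lower, with 9.07% and 6.11% of all probes called. The counts were 1286 and 635 with quantile scaling and 1585 and 863 with the authors' deposited values, and the median went from 0.43 to 0.02 and -0.01. Over all probes tested they were 4565 and 4643, and 5428 and 5576. Sensitive mice had 1099 and 390 interval-named probes, with 9.76% and 10% of all probes. These became 1038 and 669 with normexp, 1277 and 898 with quantile scaling and 1649 and 1191 with the deposited values. Over all probes tested the counts in that order were 4526 and 6028, 5524 and 6027, and 6524 and 7119. Resistant mice had 418 and 715 interval-named probes, with 7.18% and 7.49% of all probes. These counts moved with single mice: without resistant mouse 2, which enters the shared spread, vehicle mice had 4112 and 619 and sensitive mice 2984 and 1022. Leaving out a vehicle mouse gave 399 to 906 calls in vehicle mice, leaving out a sensitive mouse gave 628 to 740 in sensitive mice, and without resistant mouse 3 or 4 the resistant mice had 566 and 491. In sensitive mice the largest rises lay in the chromosome 3 and chromosome 10 stretches. The probe of chr3:30077338-30080281 R was at least 12.6-fold higher in EC, being well above background on 4 of 4 EC and 0 of 4 bulk arrays, and that of chr3:30059174-30060808 R at least 7.34-fold. Under other settings their log2 differences shrank to as little as 1.71 and 1.14, below these bounds. These bounds set the EC mean against the detection limit of each bulk array, taken as the dimmest probe the software still called well above background. The call is made for each spot, so an undetected probe can be brighter than that limit. The bounds, here and below, are therefore nominal and not strict minima. In vehicle mice the probe of chr1:33965074-34060850 R was at least 7.02-fold higher, with 3 of 3 probes called, though its log2 difference fell as low as 1.55 under other settings. That of chr5:92548501-92566401 F was higher by 4.04 (SE 0.495).

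The lean of the resistant mice towards lower values in EC changed with mouse 2 and with the scaling. Without resistant mouse 2, 3403 interval-named probes were higher in EC in resistant mice and 764 lower. With the normexp background correction 2703 were higher and 196 lower, against 9713 and 2775 of all 47856 probes tested. Among interval-named probes detected on all 32 arrays 295 (10.4%) were higher and 206 (7.24%) lower, against 12.9% and 8.64% of all such probes. In all 4 scalings (75th percentile, normexp, quantile and the authors' deposited values) 329 were higher and 81 lower, and 22 of those called lower here were called higher under another. In the comparison over all 12 mice, 1527 were higher and 554 lower in all 4 scalings, and 0 changed direction. With slide as a block, only the resistant mice inform the difference over all mice, and 435 were higher and 790 lower. Of all 47856 probes tested, 3570 were then higher and 3968 lower.

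Whether sunitinib changed the EC minus bulk difference itself was tested as an interaction. For sensitive against vehicle mice 0 interval-named probes were called by limma (0% of all probes), with 518 at an unadjusted p under 0.05. For resistant against vehicle mice 1 was higher and 58 lower, against 0.0125% and 0.299% of all probes, and the median log2 interaction was -0.74 for interval-named and -0.27 for all probes. With normexp the balance turned to 51 higher and 35 lower, against 126 and 82 of all 47856 probes tested. The median there was 0.26 against 0.23 for all probes. Without resistant mouse 2 the median was -0.03, and 238 were higher and 459 lower. Without any 1 of the 4 sensitive mice, or without vehicle mouse 3, 4 or 5, limma called 0, while 12 were called without vehicle mouse 2, 13 without resistant mouse 3, 96 without resistant mouse 4 and 105 without resistant mouse 1. Only 1 of the 59 calls held in all 4 scalings.

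EC of resistant mice, which had sunitinib and whose arrays lay on a slide of their own, was then compared with EC of vehicle mice. Of 12630 interval-named probes tested, 720 (5.7%) were higher and 8116 (64.3%) lower in resistant EC, against 16.5% and 40.6% of all probes. The median log2 difference was -1.32, against -0.35 for all probes. Most lower calls were of probes that some array did not detect. Of the probes called lower 14.5% were detected on all 32 arrays, against 63.6% of those called higher and 22.5% of those tested. The filter also admits probes that vehicle or sensitive arrays alone detected. With no filter 2318 of 16194 interval-named probes were higher and 8071 lower, with a median of -0.83. Of all 55681 probes 11851 were then higher and 18632 lower, with a median of -0.06. Against sensitive mice, with the same resistant arrays, 766 were higher and 8059 lower, against 16.4% and 41.1% of all probes. That split turned with normexp to 4790 higher and 3004 lower, and was 2221 and 5148 with quantile scaling and 2244 and 4760 with the deposited values. Of the 8059 called lower, 1639 were called higher under another scaling. Of all 46204 probes tested, the counts in that order were 17641 and 7288, 9260 and 12329, and 9449 and 11505. Among interval-named probes detected on all 32 arrays 511 (17.9%) were higher and 1165 (40.9%) lower than in sensitive mice. The shares were 30.8% and 14.3% of all probes detected on all 32 arrays. Without EC resistant mouse 2 the counts were 677 and 8191 against vehicle and 740 and 8150 against sensitive mice.

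Among the 2847 probes detected on all 32 arrays, 458 (16.1%) were higher and 1173 (41.2%) lower in resistant EC. Of all 22496 probes detected on all 32 arrays, 30.5% were higher and 13.8% lower. The median log2 difference was -0.27 for the interval-named ones and 0.29 for all of them. So the lower calls were the larger share among interval-named probes that every array measured, and the higher calls were the larger share among all probes detected on all 32 arrays.

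**Figure D4:**
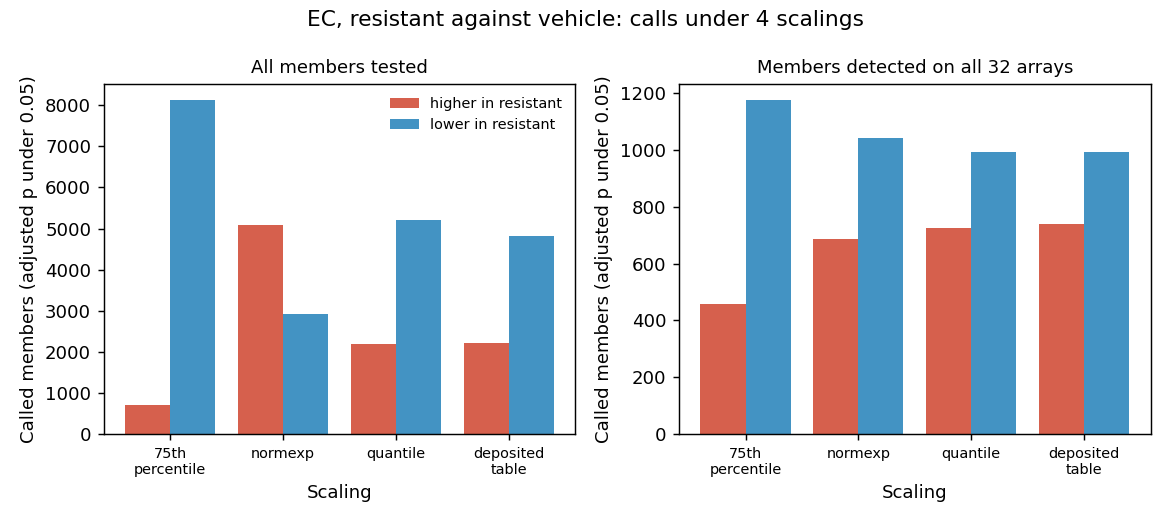
Number of interval-named probes (members) called higher or lower in EC of resistant against vehicle mice by limma, under 4 scalings of the same arrays, for all 12630 tested and for the 2847 detected on all 32 arrays, with bars from 0. With normexp the calls over all tested turn to 5099 higher and 2927 lower, whereas lower calls outnumber higher ones under every scaling for members detected on all 32 arrays. Among all 46204 probes tested, not drawn, normexp gave 18650 higher and 6872 lower.

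The split over all tested probes changed with the scaling. With normexp 5099 were higher and 2927 lower, with quantile scaling 2192 and 5208, and with the authors' deposited values 2215 and 4821. Of all 46204 probes tested, the counts in that order were 18650 and 6872, 9476 and 12215, and 9708 and 11435. The median over all probes tested was -0.35, 0.29, -0.01 and 0.01 in the 4 scalings, so each level is relative to a different centre. Of the interval-named probes, 605 were called higher and 2739 lower in all 4, while 1966 called lower by the 75th percentile were called higher under another. No count over all probes is given for calls that held in all 4. Among probes detected on all 32 arrays the counts were 458 and 1173, 686 and 1041, 723 and 992, and 739 and 990, and 348 higher and 919 lower held in all 4.

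The probes described next were chosen among those detected on all 32 arrays for large differences without overlap, while others of the 2847 were not called. The probe of chr5:124667541-124700029 F had the largest fall. Its level, as log2 signal minus the array's 75th percentile, was 2.34, 2.01, 2.01 and 1.82 on EC vehicle arrays, 2.17, 2.42, 1.88 and 2.23 on EC sensitive arrays, and -2.96, -2.29, -2.63 and -2.41 on EC resistant arrays. Vehicle and sensitive arrays overlapped, and every resistant array lay far below them. The fitted difference from vehicle was -4.62 (SE 0.191, limma adjusted p = 1.15e-08). In bulk the level was -0.34, -1.39, 0.00 and 0.67 in vehicle, and -2.73, -0.80, -3.28 and -3.64 in resistant mice, where mouse 2 overlapped vehicle. The probe of chr4:115639749-115641787 R was lower by -4.06 (SE 0.257), with 3 of 3 probes called, and that of chr15:102920547-102933472 F by -3.88 (SE 0.259), with 4 of 4. The probe of chr8:91569369-91594119 R was lower by -4.04 (SE 0.211), with 4 of 8 probes called, and 7 of 8 on the opposite letter were lower too. The probes of chr12:81221532-81232030 F and chr5:108540155-108540662 F were lower by -4.04 (SE 0.262) and -3.69 (SE 0.173).

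Higher in resistant EC was the probe of chr8:87504644-87513694 R. Its level was -3.11, -3.41, -2.85 and -2.37 on EC vehicle arrays, -3.23, -2.83, -3.46 and -2.89 on EC sensitive arrays, and -1.07, -0.23, 0.43 and 0.50 on EC resistant arrays. The resistant arrays did not overlap the others, and the difference from vehicle was 2.84 (SE 0.339, limma adjusted p = 1.31e-05); of the 5 probes of that name 4 were higher and 1 lower. The probe of chr17:47016870-47017498 F was higher by 2.53 (SE 0.234, limma adjusted p = 1.4e-06), with 3 of 3 probes called. Its EC levels were -1.88, -1.48, -1.92 and -2.47 in vehicle, -1.67, -1.30, -1.85 and -1.48 in sensitive, and 0.10, 0.80, 0.72 and 0.74 in resistant mice, again without overlap. The probes of chr15:84752337-84752984 R and chr3:51804655-51805883 R were higher by 2.56 (SE 0.454) and 2.32 (SE 0.3), each with 3 of 3 probes called. That of chr11:97505439-97522274 R was higher by 2.47 (SE 0.52), but 3 probes of the name were higher and 3 lower. That of chr13:73472571-73483846 F was higher by 2.30 (SE 0.573), while the 5 other probes of its name were lower.

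**Figure D5:**
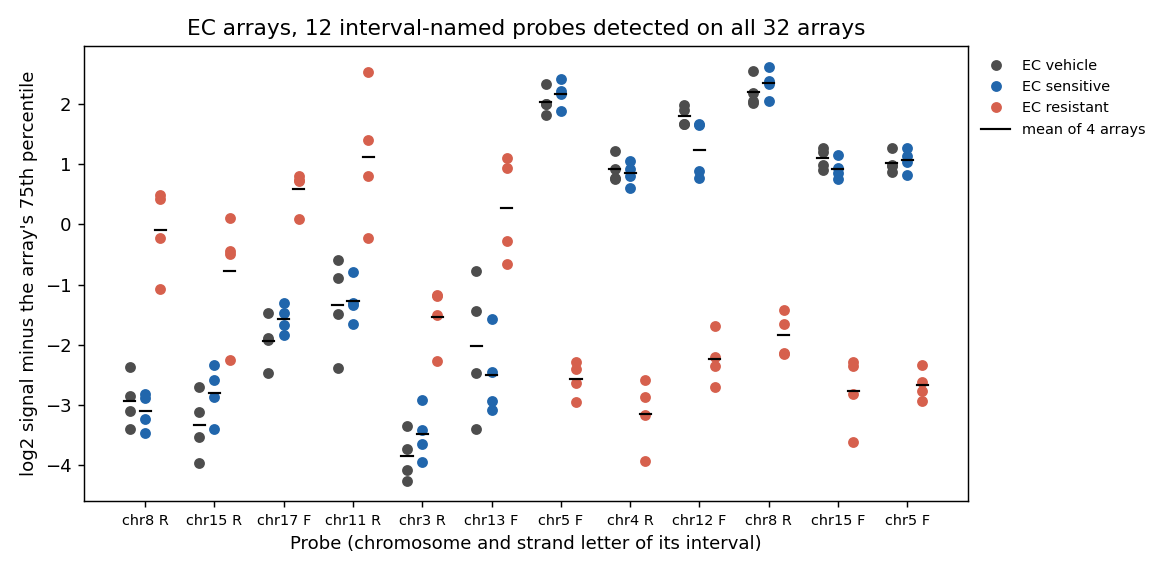
Level, as log2 signal minus the array's 75th percentile, of 12 interval-named probes detected on all 32 arrays on the 12 EC arrays, with points for arrays coloured by treatment and bars for the mean of 4 arrays. Resistant arrays lie apart from vehicle arrays for each probe, as the choice of probes required, while sensitive arrays overlap vehicle arrays for each probe.

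Over all tested probes the falls could often be given only as bounds, since no EC resistant array detected the probe. That of chr5:119945358-119962612 R was at least 18.9-fold lower in resistant EC, with 2 of 2 probes called lower and 4 of 4 on the opposite letter. That of chr13:56286339-56298089 F was at least 17.3-fold lower, that of chr1:74084292-74138492 F at least 16.3-fold, that of chr19:36699712-36763966 R at least 15.8-fold, that of chr13:34186976-34210579 F at least 10.8-fold and that of chr17:47006033-47023558 F at least 8.99-fold. Higher probes that some array missed were those of chr2:168804720-168854970 F at 3.27 (SE 0.731), chr15:84752337-84752984 R at 3.19 (SE 0.507), chr2:75496518-75496992 R at 3.06 (SE 0.425) and chr10:84010161-84016083 R at 2.96 (SE 0.639). All 3 probes of chr2:75496518-75496992 R were higher.

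Some intervals had most or all of their probes called in resistant EC. Of 3357 names with at least 2 tested probes, 1287 had every tested probe lower and 56 every tested probe higher. All 10 probes were lower for chr13:48620882-48643532 F, chr15:79764481-79809909 F, chr2:119412770-119435110 R and chr5:125190100-125209625 R. In the last, all 5 probes of the opposite letter were lower too. Higher were 5 of 5 probes of chr12:55844075-55898175 R, with 3 of 4 lower on the opposite letter, and 5 of 7 of chr17:35080914-35090009 R. Of 10 probes of chr17:46972160-46997919 R 7 were higher, by 1.01 to 2.03, while 6 of 9 on the opposite letter were lower, and of 10 of chr6:116092274-116144199 R 7 were higher, while 4 of 5 on the opposite letter were lower. The chr17:46972160-47023558 stretch around the first of these had 10 of 17 R probes higher and 2 lower, and 3 of 18 F probes higher and 11 lower. The 3 higher F probes are those of chr17:47016870-47017498, which lies inside chr17:47006033-47023558, where 3 of 4 F probes were lower. Across all names the differences of the first 2 probes correlated at r = 0.385 (3357 pairs), and those of opposite letters at 0.0659 (985 pairs), both as descriptions.

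The lists of cell type markers were read on the same arrays. Of 16 endothelial markers 0 were higher and 1 was lower in resistant EC by limma, with a mean level of 2.38 to 2.95 on resistant and 2.41 to 2.85 on vehicle arrays. Macrophage markers were higher in 3 of 9 cases (mean level 3.54 to 5.74 against 3.03 to 4.54), mural markers lower in 5 of 8 (-0.82 to 0.55 against 0.55 to 0.86), adipocyte markers lower in 5 of 6 (-3.79 to -3.25 against -1.51 to -0.27), and eosinophil markers lower in 6 of 6 (-4.22 to -2.72 against -1.23 to 2.43). The part of these cells in the changes of interval-named probes was not tested.

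The same question was put to bulk tissue. Of 10952 interval-named probes tested, 139 (1.27%) were higher and 1686 (15.4%) lower in resistant than in vehicle bulk, against 1.99% and 9.01% of all probes. Against sensitive bulk 249 were higher and 2194 lower, against 3.41% and 12.4% of all probes. Among probes detected on all 32 arrays, 72 (2.53%) were higher and 580 (20.4%) lower than in vehicle, against 2.83% and 6.08% of all probes detected on all 32 arrays. Against sensitive bulk 139 (4.88%) of these interval-named probes were higher and 780 (27.4%) lower, against 5.01% and 9.25% of all probes detected on all 32 arrays. Over all tested interval-named probes the counts against vehicle were 75 and 1308 with normexp, 638 and 2547 with quantile scaling and 562 and 2484 with the deposited values. In all 4 scalings 42 higher and 1063 lower held. Against sensitive bulk they were 116 and 1969, 754 and 3037, and 728 and 2965, and 66 higher and 1579 lower held in all 4. Of all 42134 probes tested, the counts in that order were 587 and 2955, 2288 and 5908, and 2350 and 5796 against vehicle. Against sensitive bulk those of all probes were 981 and 4633, 3095 and 7094, and 3430 and 7049. Without resistant mouse 2, whose bulk array stands apart, 379 interval-named probes were higher and 6401 lower than in vehicle, and 564 higher and 7147 lower than in sensitive bulk. The matching counts over all probes are not given, so these do not set interval-named probes apart. Without bulk resistant mouse 1, bulk resistant mouse 3 or bulk vehicle mouse 2, 1198, 1197 and 1203 were called against vehicle in both directions together. In bulk the endothelial markers had a mean level of -1.28 to -0.67 in resistant and -2.98 to 1.03 in vehicle mice, and 0 of 16 were called. With the mouse number as a block, on the mice whose numbers both groups share, 0 were called in either comparison. Such numbers pair nothing, and that fit holds fewer arrays with resistant mouse 2 among them, so its 0 decides nothing about the calls.

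Among probes detected on all 32 arrays, that of chr7:35405125-35415223 R was lower by -3.70 (SE 0.231, limma adjusted p = 7.17e-06). Its bulk level was 0.91, 0.54, 0.77 and 0.87 in vehicle, 1.06, 0.87, 0.83 and 1.41 in sensitive, and -2.93, -2.38, -3.29 and -3.11 in resistant mice. All 4 resistant mice, mouse 2 included, lay far below the rest. Probes were chosen for resistant and vehicle arrays that do not overlap, so mouse 2 lying below vehicle follows from that choice. The probes of chr10:39619134-39627737 F, chr16:13468953-13474394 F and chr5:119945358-119962612 F were lower by -3.69 (SE 0.375), -3.30 (SE 0.358) and -3.28 (SE 0.372). Those of chr13:28537223-28539860 R and chr9:106170918-106177894 F were lower by -3.27 (SE 0.299) and -3.27 (SE 0.257). On the other side, that of chr17:6426800-6528950 R was higher by 2.66 (SE 0.315), with 3 of 3 probes called, from -3.33, -4.44, -3.53 and -3.94 in vehicle to -1.52, -0.60, -1.37 and -1.13 in resistant bulk. The probes of chr17:47016870-47017498 F and chr8:87504644-87513694 R, higher in resistant EC, were higher here by 2.72 (SE 0.508) and 2.25 (SE 0.291). The probe of chr2:75496518-75496992 R was at least 6.69-fold higher, and that of chr13:34186976-34210579 F at least 9.27-fold lower. Under other settings their log2 differences shrank to as little as 1.36 and -1.96.

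The resistant arrays of EC and bulk came from the same mice and slide, so their overlap is a description only. Of 10819 interval-named probes tested in both, 7205 were lower in EC and 1685 in bulk, and 1636 were lower in both, which is 22.7% of the EC and 97.1% of the bulk calls. Higher in both were 86, which is 12.8% of 674 EC and 63.7% of 135 bulk calls. Among probes detected on all 32 arrays 545 were lower in both, 46.5% of the EC and 94% of the bulk calls.

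Tumours labelled sensitive were compared with vehicle in each fraction. In EC 0 of 12630 interval-named probes were called by limma (0% of all probes), with 346 at an unadjusted p under 0.05 and a median log2 difference of 0.00. The smallest p belonged to a probe of chr5:35975265-35982561 F, whose difference was 0.93 (SE 0.204, limma adjusted p = 1). Its level was -1.60, -2.02, -1.37 and -2.05 in vehicle and -1.24, -0.70, -0.60 and -0.78 in sensitive mice, and the groups did not overlap. Another probe of that name differed by 1.12 (SE 0.257). In bulk 0 of 10952 were called (0% of all probes), with 537 at an unadjusted p under 0.05 and a median of 0.18 against 0.10 for all probes. The probe of chr17:5795893-5835243 F differed by 1.49 (SE 0.267, limma adjusted p = 0.833), at 0.68, -0.57, 0.07 and 0.06 in vehicle and 1.43, 1.67, 1.43 and 1.68 in sensitive mice. That of chr12:82495575-82516300 R differed by 1.31 (SE 0.225).

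The smaller tumours gave 2 sunitinib and 2 vehicle arrays at each point, so few calls could be made and a count of 0 does not show that levels were alike. At day 9, 0 of 11920 interval-named probes were called by limma in either direction, against 0% of all probes higher and 0.00226% lower, with 1045 at an unadjusted p under 0.05. The probe of chrX:47893703-47996700 R had the smallest p, with levels of -0.06 and -0.33 under sunitinib and -2.42 and -1.86 under vehicle, a difference of 1.95 (SE 0.285, limma adjusted p = 0.42). At 600 mm3, 1 was higher and 3 were lower, against 0.189% and 0.171% of all probes, with 996 at an unadjusted p under 0.05. Averaged over both points 0 were called (0% of all probes), with 559 at an unadjusted p under 0.05.

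The 4 called at 600 mm3 were each missed on at least 1 of the 4 arrays. The probe of chr6:145936225-145965575 R was at least 5.98-fold higher under sunitinib (limma adjusted p = 0.0428), at -4.11 and -3.95 against -8.94 and -7.94, and was not well above background on either vehicle array. The probe of chr2:84344350-84370075 R was lower by -2.79 (limma adjusted p = 0.0325), that of chr5:22801058-22939737 R by -2.09 (0.0428) and that of chr15:5446265-5544984 F at least 1.8-fold (0.0408). Each was the only called probe of its name, and 0 of the 4 were called in all 4 scalings. Under other settings the log2 differences of the chr6 and chr15 probes, given as bounds, shrank to as little as 1.13 and -0.20. Without any 1 of the 600 mm3 arrays limma called 0, and without either day 9 sunitinib array, which enters the shared spread, 10. At day 9 the chr6:145936225-145965575 probe stood at -3.48 and -4.28 under sunitinib and -4.62 and -2.98 under vehicle, and the groups overlapped.

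Long noncoding RNAs with a gene name on the same array serve as context. A list of 79 gene symbols, of which 1 is protein-coding and was left out, and the names that the probe set itself gives matched 93 tested probes of 46 names. In EC against bulk 23 of the 93 were higher and 20 lower, with a median of 0.16. All 5 probes named XIST, the RNA that coats and silences an X chromosome in female cells, were higher in EC, by 1.85 to 2.21. NEAT2, another name of the nuclear RNA Malat1, was higher with 3 of 3 probes, by 1.00 to 1.30, and Malat1 by 1.22. The imprinted RNA H19 was lower with 5 of 5 probes, by -1.49 to -1.71, as was TUG1 with 5 of 5, by -0.87 to -1.11, although 1 of 3 probes matched to Tug1 by accession was higher and 1 lower. In resistant against vehicle EC, 27 of 91 were higher and 25 lower. There NEAT1, the scaffold of nuclear paraspeckles, was higher with 5 of 5 probes, by 1.06 to 1.32, and in resistant against vehicle bulk by 1.26 to 1.49, where 7 of 82 were higher and 8 lower. The Neat1 probe matched by accession was higher in EC by 1.21 and not called in bulk, at 1.31 (limma adjusted p = 0.0585). Other named RNAs fell further. In resistant EC a HOTAIR probe was lower by -3.52, while another, at -0.85, was not called, and Hoxa11os was lower by -2.18. In bulk the first HOTAIR probe was lower by -3.39, Terc by -3.14, and NRON probes by -2.42 and -2.90. Another NRON probe, at -1.98, was not called. H19 and TUG1 had 0 of 5 probes called in either resistant comparison, but of the 3 probes matched to Tug1 by accession 2 were higher in resistant EC, by 0.72 and 1.76, and 0 were called in bulk.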

How the data were processed

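Total RNA of EC and bulk tumour fractions was hybridised to 32 one-colour (Cy3) arrays, and each array was deposited as scanner output of linear intensity from Feature Extraction 10.7.3.1 in build mm9, per the file headers; the submitters' processing notes name Agilent Feature Extraction 9.1. The authors' deposited value table holds normalised intensities, which were taken to log2 here. How they were normalised is not given in the sources used here. It served as an alternative.

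From the deposited processed intensity, log2 minus the array's 75th percentile was taken after control spots and outlier-flagged spots were left out. The detection call was the software's own. Models were fitted in limma 3.58.1 (R 4.3.3) over all probes well above background on at least 4 arrays (2 in the smaller tumours), with Benjamini-Hochberg adjustment at 0.05. EC minus bulk had the mouse as a block, since the labels' mouse numbers join both fractions of a tumour (deviations of the same mouse correlated at -0.0133 to 0.354). The files of resistant mouse 4 carry another number than the labels, the same in both fractions, and the labels' number was used. EC, bulk and the smaller tumours were each fitted over all their groups, so groups share 1 spread (9, 9, 9 and 4 residual degrees of freedom for both fractions, EC, bulk and the smaller tumours). Mouse numbers shared between treatments pair nothing.

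Named probes were, for comparisons with at least 5 calls, the 6 largest rises and falls among called probes whose arrays did not overlap (for within-mouse differences, with 1 sign in every mouse) and that every array of the higher group detected, 1 per interval, also among probes detected on all 32 arrays, plus the 4 intervals with most calls in EC minus bulk and EC resistant minus vehicle. With fewer calls, the 3 smallest p in each direction were taken. The rule also names 1 interval not reported here. A bound ("at least") was given where a group had no array well above background. The probes, lists and tests were chosen with earlier results of these data known. The fits were tested on simulated data. The alternatives were normexp (offset 50, on median signals, since the files hold no mean signal), quantile scaling, the deposited values and other detection filters. Further ones were slide or mouse number as a block, groups of a shared slide fitted alone, and each mouse or array left out. The number of arrays limits the precision.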

Additional observations from a re-analysis of the deposited data

Results flagged for a closer look

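Bulk resistant mouse 2 detected 78.3% of interval-named probes, far from the 36.8% to 41% of the other 3 mice of its group. In chr12:117623500-117643575 R the log2 EC minus bulk of resistant mouse 2 was -4.86, far from the -1.40 to -1.13 of the other resistant mice. In chr17:47016870-47017498 F the log2 level of EC resistant mouse 1, 0.0967, lay apart from the 0.72 to 0.80 of the other 3. These are the 3 samples found far from the rest of their group among 66 groups of 4, and chance gives about 5%. The part of bulk array 2 in the first and second was not tested.

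Of the 59 interval-named probes called by limma's test of the interaction, the 7 named by the rule are given here. For these the EC minus bulk difference differed between resistant and vehicle mice. In chr8:122920901-123008463 R it was 1.42 higher in resistant mice (SE 0.252), the 1 called of 10 probes of that name, with a limma adjusted p of 0.05 after rounding and just below it before. It kept that call only with normexp, without the mouse block and without resistant mouse 2. It was lower in resistant mice in chr6:146493273-146493932 R at -4.83 (limma adjusted p = 0.0388), in chr4:128727332-128735227 F at -4.33 (0.0328) and in chr1:138518674-138521227 R at -4.19 (0.0328). It was also lower in chr12:16447157-16447657 F at -3.94 (0.0388), in chr2:167388900-167402475 F at -3.90 (0.0328) and in chr13:19618491-19618836 R at -3.50 (0.0407). Of the 6 lower probes, 5 were detected on 0 of 4 EC resistant arrays, so the sizes of these differences depend on values at background. Each of the 6 lost the call in 10 to 13 of 17 repeats with other settings or without a mouse.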

How the results depend on the processing

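No difference changed direction under any alternative run for a probe named by its size or by p. These probes were chosen for large differences or small p, so this follows in part from the choice. Among all interval-named probes, 1966 of the 8116 called lower in resistant against vehicle EC were called higher under another scaling. Of the repeats for named probes 2729 stayed on their side of the threshold, 220 lost the call and 0 gained one. The 2729 include probes of comparisons without calls, which had no call to keep. Probes named only because their interval had most calls were not followed in these repeats. Counts of called interval-named probes moved as follows, and where a value is given with no reason the cause was not tested. EC minus bulk over all mice gave 4760 with the deposited values, 1538 when detection on every array was required, 1225 with slide as a block and 6780 in the 8 sensitive and vehicle mice alone, a choice made after seeing the data. Vehicle mice gave 2448 with the deposited values and 849 with every array required, and sensitive mice 2840 and 983. Resistant mice gave 1735 with the deposited values, 1848 with quantile scaling and 2899 with normexp. They gave 0 when their arrays, which share a slide, were fitted alone with no slide term. That fit holds fewer arrays and cannot separate slide from resistance, so its 0 decides nothing about slide. The resistant against vehicle interaction gave 399 with quantile scaling, 410 with the deposited values, 28 without a filter and 39 with every array required. With every array required, which tests fewer probes, EC resistant gave 1893 against vehicle and 1956 against sensitive, and bulk resistant 968 and 1370. Bulk resistant gave 3185 and 3791 with quantile scaling and 3046 and 3693 with the deposited values. Bulk sensitive against vehicle gave 2 when these groups, which share a slide, were fitted alone with no slide term. The 600 mm3 comparison gave 1 without a filter.

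Without the replicate block, EC minus bulk gave 2943 over all mice and the interaction 102. Same-numbered mice of different treatments share only a number (correlations of -0.0329 to 0.0797 in EC and -0.0752 to 0.103 in bulk). With that number as a replicate block, on arrays whose numbers both groups share, bulk resistant gave 0 against vehicle and 0 against sensitive, and EC resistant 8167 and 8137. Sensitive against vehicle gave 0 in EC and 0 in bulk, day 9 0, 600 mm3 27 and their average 0.

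Leaving out each mouse or array in turn gave 2453 to 7449 for EC minus bulk over all mice, 399 to 4731 in vehicle, 628 to 4006 in sensitive and 491 to 4167 in resistant mice, and 0 to 697 for the interaction of resistant mice. EC resistant gave 8364 to 8945 against vehicle and 8214 to 8942 against sensitive. Bulk gave 1197 to 6780 and 1667 to 7711, and 0 to 2 for sensitive against vehicle. Day 9 gave 0 to 1, 600 mm3 0 to 10 and their average 0 to 1. The highest count in every EC minus bulk comparison that moved, and in bulk, came without resistant mouse 2. Signal over background limits what the EC resistant arrays can show, since they detected 23.5% to 33.6% of these probes.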
